A study of Caenorhabditis elegans with 12 samples.

Results

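The UDP-glucuronosyltransferase genes of the nematode Caenorhabditis elegans were followed in adults moved from warm to cooler cultivation. Members were all probe sets that the platform annotation assigns to a single symbol of the form ugt-N. The probe set with the highest mean signal over the 12 arrays stood for its gene. This gave 64 genes of the 17118 genes measured by a single-symbol probe set. The gene table holds 67 genes of this form, and ugt-34, ugt-49 and ugt-65 were not analysed here. Total RNA came from whole synchronized wild-type N2 Bristol adults, the standard laboratory strain, grown from embryos for 2.5 days at 23 °C and then shifted to 17 °C. Affymetrix arrays covered 4 samples taken just ahead of the shift (0 h), 2 each taken 1 h and 2 h later, and 4 taken 4 h later. There was no parallel series left at 23 °C, so elapsed time and handling cannot be told apart from temperature. Separate cultures per replicate are not stated in the labels, and the p-values measure only the spread between these samples. The RNA was amplified as cDNA before it was labelled.

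UDP-glucuronosyltransferases sit in the membrane of the endoplasmic reticulum and join a sugar from a UDP-sugar to small fat-soluble molecules. The conjugates dissolve better in water and are exported, which makes the family part of phase II detoxification, after the oxidations made by cytochrome P450 enzymes. In C. elegans the family has expanded, many of its genes lie side by side, and small molecules are often conjugated with glucose rather than glucuronic acid. The substrates of most individual members are not known, and a symbol here names family membership only.

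Expression was given as log2 probe set signal. The median signal of an array was 5.502 to 5.571, and its lower quartile was 3.53 to 3.64. The files hold no measure of background, so signal values near or under the lower quartile carry little information on size. A probe set's signal also depends on its oligonucleotides, and levels of different genes are therefore placed against the quartiles of all probe sets and not against each other. RNA came from whole animals, in which fewer cells of a type and less RNA per cell cannot be told apart. Markers of intestine, hypodermis, muscle, neurons and germline were all measured above the lower quartile, and 1 of 4 sperm markers lay below it. With 2 to 4 arrays a time, precision was limited by how few arrays there were.

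Family members moved in both directions by 4 h at 17 °C, with more falls than rises. Of the 64 genes, 5 fell and 2 rose, and 57 did not pass the test (limma, adjusted p under 0.05 over all 22548 probe sets). The genes that fell were ugt-63, ugt-53, ugt-43, ugt-44 and ugt-17, and those that rose were ugt-2 and ugt-19. The called share was 10.9% of the family against 2.48% of all genes, and at an unadjusted p under 0.05 it was 39.1% (25 genes) against 13%. By direction, 7.81% of the family fell against 1.04% of all genes, and 3.12% rose against 1.44%. The median change of the 64 genes was -0.02 log2 units, beside -0.01 over all genes, with 36 below 0 and 28 above. The sizes of change were spread more widely, with 10.9% of the family changed by at least 0.5 log2 units in either direction, called or not, against 1.94% of all genes. When either the replicate 2 or the replicate 3 array of 4 h was left out, 4 members were called, and all of them fell. They were ugt-63, ugt-53, ugt-43 and ugt-17, and the share of all genes called was not computed in these fits.

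**Figure D1:**
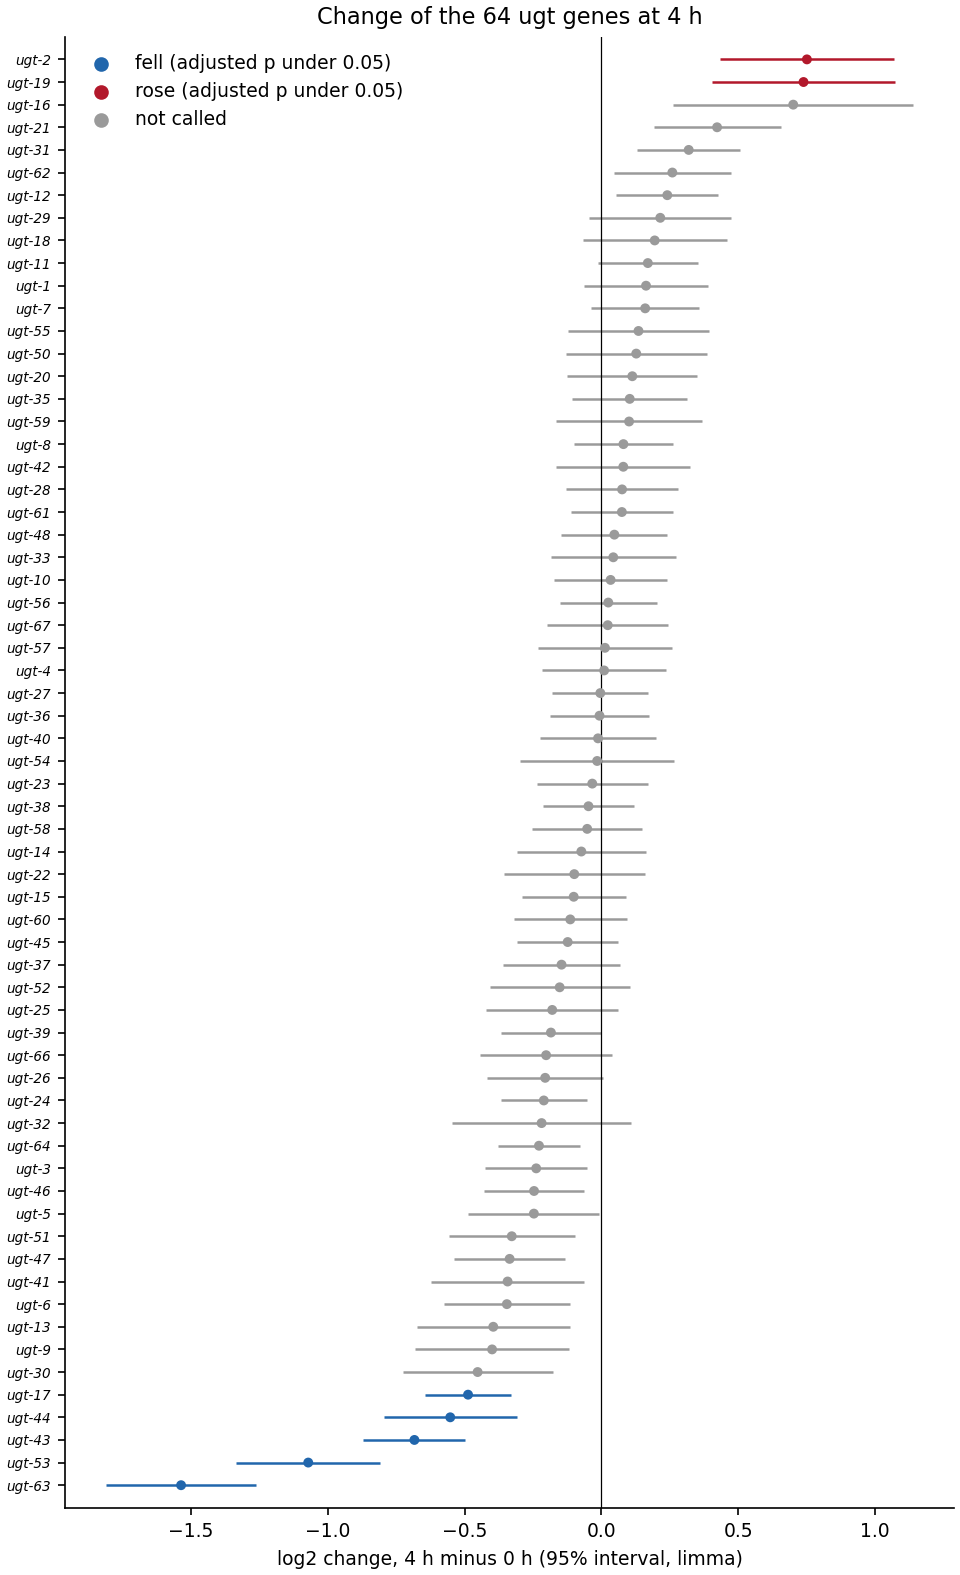
Log2 change from 0 h to 4 h (horizontal axis) for each of the 64 ugt genes, ordered by size, with the 95% interval of the limma fit as a line. Blue points fell and red points rose at an adjusted p under 0.05. The changes run from -1.54 for ugt-63 to 0.75 for ugt-2, and the intervals of the grey genes together span -0.73 to 1.14.

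The transcript of ugt-63 (C04F5.7) showed the largest change of the family. Its signal was 8.16, 8.30, 7.83 and 7.94 on the arrays at 0 h and 7.69 and 7.68 at 1 h. It was 7.15 and 6.78 at 2 h and 6.39, 6.47, 6.39 and 6.83 at 4 h. Both 2 h arrays and all 4 h arrays lay below every 0 h array, and the 4 h arrays also lay below the 1 h arrays. The level at 4 h was 2.90-fold lower than at 0 h (6.52 ± 0.209 against 8.06 ± 0.213, SD, n = 4 each), a log2 change of -1.54 (SE 0.127, adjusted p = 7.85e-05). Within replicate numbers 1 to 4, the log2 difference between 4 h and 0 h was -1.77, -1.83, -1.44 and -1.11. The larger differences were those of replicates 1 and 2, which were also the higher arrays at 0 h.

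The transcript of ugt-53 (T03D3.1) fell as well. Its signal was 6.69, 6.91, 6.64 and 6.82 at 0 h, 6.77 and 6.48 at 1 h, and 6.17 and 6.20 at 2 h. At 4 h it was 5.63, 6.06, 5.43 and 5.65. Arrays at 1 h overlapped those at 0 h, whereas all arrays at 2 h and 4 h lay below them. The level at 4 h was 2.10-fold lower (5.69 ± 0.265 against 6.77 ± 0.123, SD, n = 4 each), with a log2 change of -1.07 (SE 0.121, adjusted p = 0.00051). The differences within replicate numbers ran from -1.20 to -0.84.

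The genes ugt-43 (F01D4.1) and ugt-44 (F01D4.2) are next to each other on chromosome IV, and both fell at 4 h. The signal of ugt-43 was 5.39, 5.14, 5.33 and 5.34 at 0 h, 5.44 and 5.49 at 1 h, and 5.21 and 5.12 at 2 h, and then 4.61, 4.41, 4.77 and 4.67 at 4 h. The arrays up to 2 h lay close together and the 4 h arrays lay below all of them. The log2 change of ugt-43 at 4 h was -0.68 (SE 0.0861, adjusted p = 0.000996), a 1.61-fold lower level. The signal of ugt-44 was 8.28, 8.31, 8.41 and 8.52 at 0 h, 7.99 and 8.50 at 1 h, 8.46 and 8.14 at 2 h, and 7.92, 7.80, 7.71 and 7.88 at 4 h. Here too the 4 h arrays lay below every other array, and the pairs of arrays at 1 h and at 2 h were wider apart. The log2 change of ugt-44 was -0.55 (SE 0.112, adjusted p = 0.0194), a 1.47-fold lower level. Leaving out the replicate 3 or 4 array of 0 h, or the replicate 2 or 3 array of 4 h, ended its call, with an adjusted p of up to 0.0716. Its log2 change lay between -0.59 and -0.50 over all single omissions.

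On chromosome V, ugt-17 (C08B6.1) fell with little spread between arrays. Its signal was 7.04, 7.12, 7.07 and 7.07 at 0 h, 7.04 and 6.89 at 1 h, 6.63 and 6.79 at 2 h, and 6.48, 6.58, 6.59 and 6.71 at 4 h. Arrays at 2 h and 4 h lay below those at 0 h. The level was 1.40-fold lower at 4 h (log2 change -0.49, SE 0.0723, adjusted p = 0.00297). The name of its probe set ends in _s_at, which on these arrays marks oligonucleotides shared by several transcripts. Its neighbour ugt-47 (R04B5.9) went from 6.78, 6.95, 6.75 and 6.94 at 0 h to 6.42, 6.47, 6.43 and 6.76 at 4 h. The replicate 4 array at 4 h overlapped the 0 h arrays, and the change of ugt-47 missed the threshold (log2 change -0.34, SE 0.094, adjusted p = 0.0966). Without that array ugt-47 was called.

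**Figure D2:**
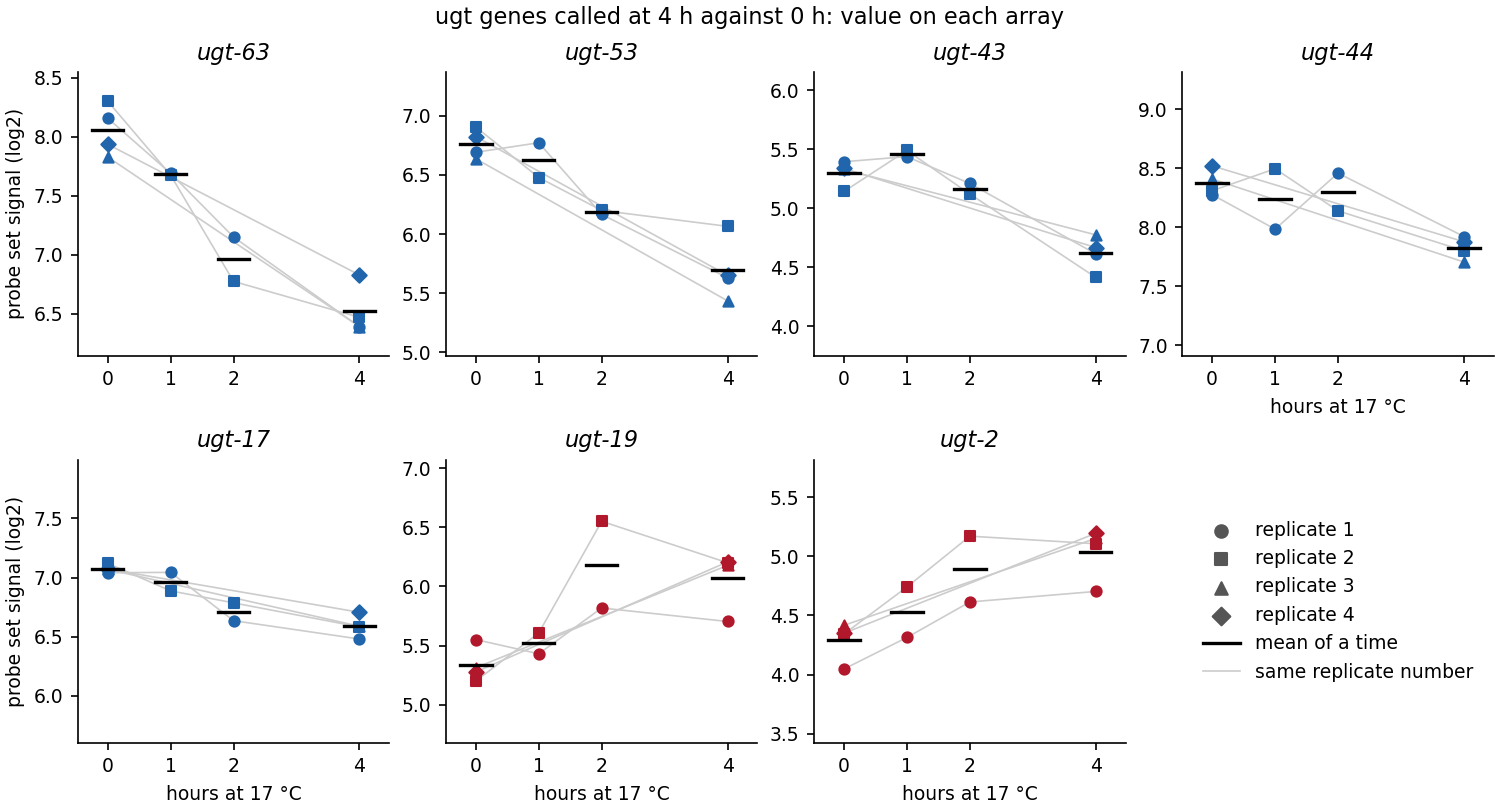
Log2 probe set signal (vertical axis, each panel spanning 2.4 log2 units) against hours at 17 °C for the 7 ugt genes called at 4 h, falls in blue and rises in red. Symbols are single arrays by replicate number, black bars are the means of a time, and grey lines join equal replicate numbers. The 4 h arrays of every gene lie outside the range of its 0 h arrays, and the 2 h arrays of ugt-19 and ugt-2 are wide apart.

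Higher levels at 4 h were called for ugt-2 (AC3.8, chromosome V) and ugt-19 (K08B4.3, chromosome IV). The signal of ugt-2 was 4.05, 4.34, 4.42 and 4.35 at 0 h, 4.31 and 4.74 at 1 h, 4.61 and 5.17 at 2 h, and 4.70, 5.11, 5.15 and 5.20 at 4 h. Replicate 1 was the lowest array of each time, and every 4 h array lay above every 0 h array. The level at 4 h was 1.68-fold higher (log2 change 0.75, SE 0.148, adjusted p = 0.016), and the differences within replicate numbers were alike, from 0.66 to 0.85. The signal of ugt-19 was 5.55, 5.20, 5.31 and 5.28 at 0 h, 5.43 and 5.61 at 1 h, 5.82 and 6.55 at 2 h, and 5.70, 6.20, 6.18 and 6.21 at 4 h. Its replicate 1 arrays lay closest together, with a difference of 0.15 between 4 h and 0 h against 0.87 to 1.00 for the other replicate numbers. The level of ugt-19 was 1.67-fold higher at 4 h (log2 change 0.74, SE 0.154, adjusted p = 0.0231).

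Both rises depended on single arrays, as did the fall of ugt-44 described above. That of ugt-19 was no longer called after any 1 of the replicate 2, 3 or 4 arrays of 0 h or of 4 h was left out (adjusted p up to 0.0752, log2 change 0.69 to 0.86). It also missed the threshold when only the arrays of 0 h and 4 h were fitted with the replicate number as a block (adjusted p = 0.0523). For ugt-2, omission of the replicate 1 array of 0 h or of the replicate 2 or 3 array of 4 h ended the call (adjusted p up to 0.0584, log2 change 0.67 to 0.86). Most intestine markers were higher at 4 h, the time at which 5 ugt genes were called as falls and 2 as rises. Of 10 listed and measured, 8 lay above 0, with a median log2 change of 0.19 against -0.01 over all genes. The peptide transporter gene pept-1 rose the most (log2 change 0.91, adjusted p = 0.000127), which weighs on the mean given next. The proton pump subunit gene vha-6 fell (log2 change -0.30, adjusted p = 0.0421). The mean log2 level of the 10 was 7.76 to 7.85 on the 0 h arrays, 7.85 to 7.88 at 1 h, 7.90 to 7.91 at 2 h and 7.93 to 8.04 at 4 h, and none lay below the lower quartile. The part of this shift in the falls or the rises of the ugt genes was not tested.

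At 1 h no member was called in limma, as no gene was on the arrays as a whole (0% of genes). At an unadjusted p under 0.05 there were 4 members, 6.25% of the family against 6.44% of all genes, and the log2 changes of the members lay between -0.37 and 0.32. At 2 h, ugt-63 was the member called (1.56% of the family against 1.06% of all genes), with a log2 change of -1.09 (SE 0.156, adjusted p = 0.00444). At an unadjusted p under 0.05 there were 15 members, 23.4% against 12.8% of all genes. The share of all genes called was not computed in the alternative fits that follow. Single arrays moved the count of called members at 2 h. It was 0 without the replicate 2 array of 2 h (ugt-63 then at -0.91, adjusted p = 0.139), 3 without the replicate 1 array of 2 h (ugt-63, ugt-19 and ugt-16), and 2 when the replicate 1 or the replicate 2 array of 4 h was left out (ugt-63 with ugt-19 or ugt-53). Blocking on replicate number added ugt-2 to the calls at 2 h (log2 change 0.72, adjusted p = 0.00657, against 0.60 and adjusted p = 0.168 unblocked). In a blocked fit of the 0 h and 2 h arrays alone, the adjusted p of ugt-63 was 0.0516. The arrays of 1 h and 2 h were all of replicates 1 and 2, while those of 0 h were of replicates 1 to 4.

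The members called at 4 h differed in where they lay at 2 h. The log2 change from 0 h to 2 h was 0.85 for ugt-19 (adjusted p = 0.0565), -0.58 for ugt-53 (adjusted p = 0.0987) and -0.37 for ugt-17 (adjusted p = 0.0837). It was -0.14 for ugt-43 (adjusted p = 0.656) and -0.08 for ugt-44 (adjusted p = 0.876). The step from 2 h to 4 h itself was tested, and no member was called in limma (0.0701% of all genes were). At an unadjusted p under 0.05 there were 9 members, 14.1% against 11.1% of all genes. The step had a log2 change of -0.55 for ugt-43 (SE 0.105, adjusted p = 0.12), -0.49 for ugt-53 (adjusted p = 0.29), -0.47 for ugt-44 (adjusted p = 0.274) and -0.44 for ugt-63 (adjusted p = 0.355). In the fit of all arrays with the replicate number as a block, the step of ugt-43 was called (log2 change -0.62, adjusted p = 0.0423), but not in the blocked fit of the 2 h and 4 h arrays alone (log2 change -0.65, adjusted p = 0.155). Muscle markers differed over the same times. All 5 lay above 0 at 2 h (median log2 change 0.31, against -0.01 over all genes), and all 5 were lower at 4 h than at 2 h (median -0.36, against -0.01 over all genes). None was called, and 3 of the 5 had an unadjusted p under 0.05 for the step. Their mean log2 level was 8.80 to 9.01 on the 0 h arrays, 8.86 to 9.32 at 1 h, 9.05 to 9.26 at 2 h and 8.59 to 9.01 at 4 h, and none lay below the lower quartile. From 0 h to 2 h this mean went from 9.01 to 9.05 in replicate 1 and from 8.91 to 9.26 in replicate 2. On the 0 h arrays of replicates 3 and 4, which have no 2 h arrays, it was 8.80 and 8.82. Germline markers went the other way. All 5 lay below 0 at 2 h (median log2 change -0.115), and all 5 were higher at 4 h than at 2 h (median 0.166). None of these was called, and 1 of the 5 had an unadjusted p under 0.05 in limma for the step. The part of the muscle or germline markers in the changes of the ugt genes at these times was not tested. An F test in limma, which asks whether any of the later times differed from 0 h, called 5 members, ugt-63, ugt-43, ugt-53, ugt-17 and ugt-19, where 1.91% of all genes were called. The adjusted p of this test was 0.0619 for ugt-2 and 0.0738 for ugt-44. With the replicate number as a block it also called 5 members, with ugt-2 in place of ugt-19.

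The 57 members that did not pass at 4 h had log2 changes between -0.45 and 0.70. Of these, 46 had a 95% interval that lay wholly within 0.5 log2 units of 0, and the intervals of all 57 together reached from -0.73 to 1.14. The smallest p-values among them were those of ugt-21, ugt-31 and ugt-47. The signal of ugt-21 was 4.33 to 4.77 at 0 h and 4.85 to 5.22 at 4 h (log2 change 0.42, SE 0.108, adjusted p = 0.0638). That of ugt-31 was 4.93 to 5.21 at 0 h and 5.24 to 5.56 at 4 h (log2 change 0.32, SE 0.0867, adjusted p = 0.0853). With a replicate block ugt-31 was called in the fit of all arrays (adjusted p = 0.0289) and missed the threshold in that of the 0 h and 4 h arrays alone (adjusted p = 0.0531). The highest bound belonged to ugt-16, chosen here after its values were seen, whose log2 change was 0.70 (SE 0.203, adjusted p = 0.111). It had the widest spread between arrays of a time in the family, with 4.92 and 5.80 at 2 h and a pooled SD of 0.352 against a family median of 0.156. It was called when the arrays of 0 h and 4 h were fitted alone.

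Arrays of 0 h and 4 h did not overlap for 17 members, 6 higher and 11 lower at 4 h. This was 26.6% of the family, against 9.36% of all genes, of which 4.58% lay higher and 4.78% lower. They were the 7 called genes and 10 others, ugt-16, ugt-21, ugt-24, ugt-26, ugt-30, ugt-31, ugt-46, ugt-51, ugt-62 and ugt-64, with an adjusted p from 0.0638 to 0.416. The log2 difference between 4 h and 0 h had the same sign in all 4 replicate numbers for 29 members, 45.3% against 27.2% of all genes.

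The members covered the range of signals on the arrays. By the mean of the 12 arrays, 19 of the 64 lay under the lower quartile of all probe sets, 23 between it and the median, 16 between the median and the upper quartile and 6 above it. The highest signals were those of ugt-24 (10.57), ugt-64 (9.39) and ugt-22 (9.21), with a log2 change at 4 h of -0.21 (adjusted p = 0.203), -0.23 (adjusted p = 0.134) and -0.10 (adjusted p = 0.831). The lowest were those of ugt-38 (1.99), ugt-57 (2.17) and ugt-35 (2.42), with log2 changes of -0.05, 0.01 and 0.10. Of the 7 called genes, 5 lay between the median and the upper quartile and 2, ugt-43 and ugt-2, between the lower quartile and the median. The 19 dimmest members had log2 changes of -0.24 to 0.19 and none was called, and at such signals a change could be missed.

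**Figure D3:**
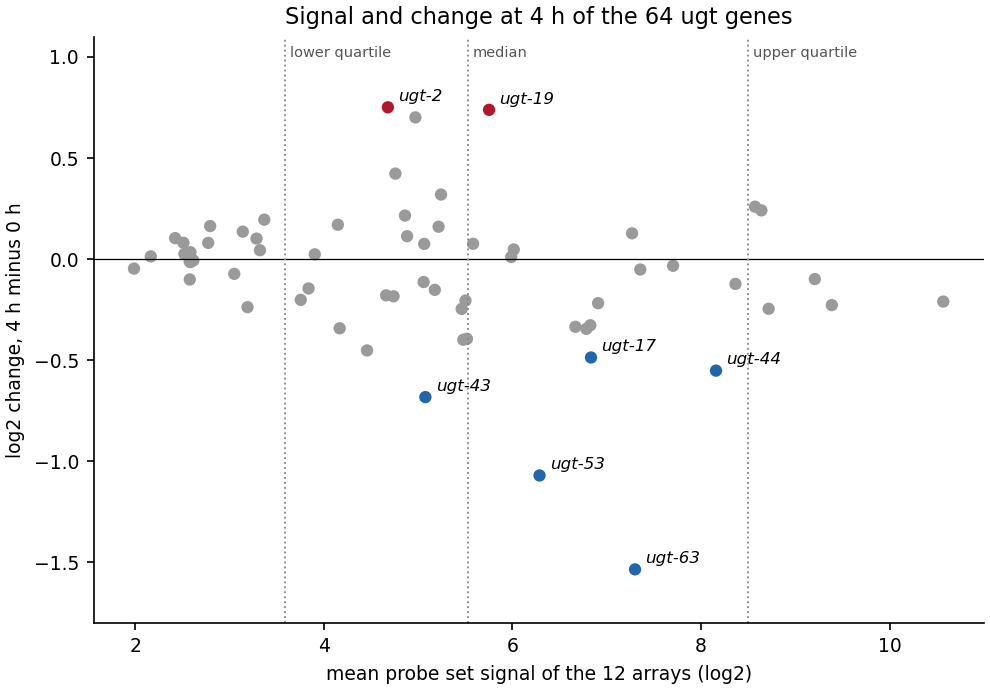
Mean log2 signal of the 12 arrays (horizontal axis) against the log2 change from 0 h to 4 h (vertical axis), with 1 point per ugt gene, blue for falls, red for rises and grey for genes not called. Dotted lines are the lower quartile, median and upper quartile of all probe sets. The points left of the lower quartile stay between -0.24 and 0.19, and the called genes lie between the lower and the upper quartile.

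The brighter members lay mostly below their 0 h level at 4 h. Of the 22 at or above the median of all probe sets, 15 were below 0 (68.2%) with a median log2 change of -0.17. Of the 8256 genes in that range, 49.8% were below 0, with a median of 0.00. The mean log2 level of these 22 members was 7.56 to 7.64 on the 0 h arrays, 7.53 to 7.54 at 1 h, 7.43 to 7.46 at 2 h and 7.35 to 7.44 at 4 h, so the arrays of 0 h and 4 h did not overlap. The called falls of ugt-63 (-1.54), ugt-53 (-1.07), ugt-44 (-0.55) and ugt-17 (-0.49) weigh on this mean. So does the called rise of ugt-19 (0.74), in the other direction. Means per array of all genes in that range were not computed. Of the 42 dimmer members, 21 were below 0 and 21 above, with a median of 0.01, while their mean level was 3.83 to 3.87 at both 0 h and 4 h. Of dimmer genes as a whole, 59.1% were below 0, with a median of -0.03.

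**Figure D4:**
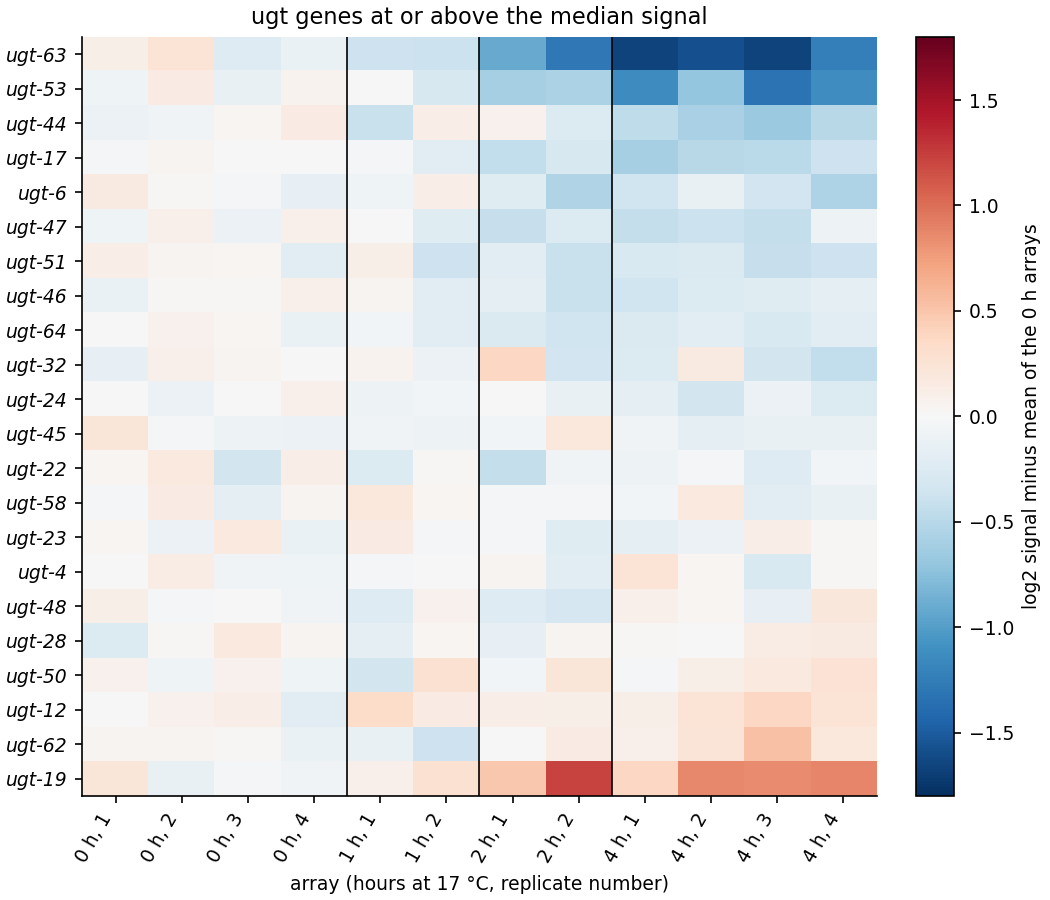
Log2 signal minus the mean of the 0 h arrays (colour) for the 22 ugt genes at or above the median signal (rows, ordered by change at 4 h) on the 12 arrays (columns, hours and replicate number). Blue spreads from the 2 h to the 4 h columns in the upper rows, led by ugt-63 and ugt-53, and ugt-19 is red, with its highest value on the replicate 2 array at 2 h.

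The family is uneven over the genome, with 40 of the 64 genes on chromosome V, 11 on IV, 5 on I, 4 on X, 3 on III and 1 on II. Runs were defined as ugt genes with at most 3 other protein-coding genes between neighbours. There were 11 such runs with 36 measured members, and the other 28 members stood alone. The called genes were divided into 5 in runs and 2 alone, ugt-63 and ugt-53. In 3 of the 4 pairs that held a called gene, the neighbour was not called. Beside ugt-2, the signal of ugt-1 was near the bottom of the arrays (2.79) with a log2 change of 0.16 (adjusted p = 0.604). Beside ugt-19, ugt-20 changed by 0.11 (adjusted p = 0.783), and ugt-47 beside ugt-17 is described above. The pair of ugt-43 and ugt-44 was the run with more than 1 called member.

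No run of 3 or more members held a called gene. The 8 neighbours from ugt-12 to ugt-13 on chromosome V (ugt-12, ugt-11, ugt-9, ugt-10, ugt-67, ugt-8, ugt-14 and ugt-13 in order) changed by -0.40 to 0.24, 5 above 0 and 3 below, at mean signals from 2.51 to 8.64. The 6 neighbours ugt-40, ugt-37, ugt-38, ugt-39, ugt-41 and ugt-36 were all below 0, by -0.34 to -0.01, with 3 of them under the lower quartile. The run of ugt-5, ugt-4, ugt-6 and ugt-3 changed by -0.35 to 0.01 and that of ugt-26, ugt-27, ugt-28 and ugt-25 on chromosome I by -0.21 to 0.08. In the run of ugt-18, ugt-16 and ugt-15, the values were 0.19, 0.70 and -0.10. The smallest adjusted p at 4 h in these runs was 0.111.

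**Figure D5:**
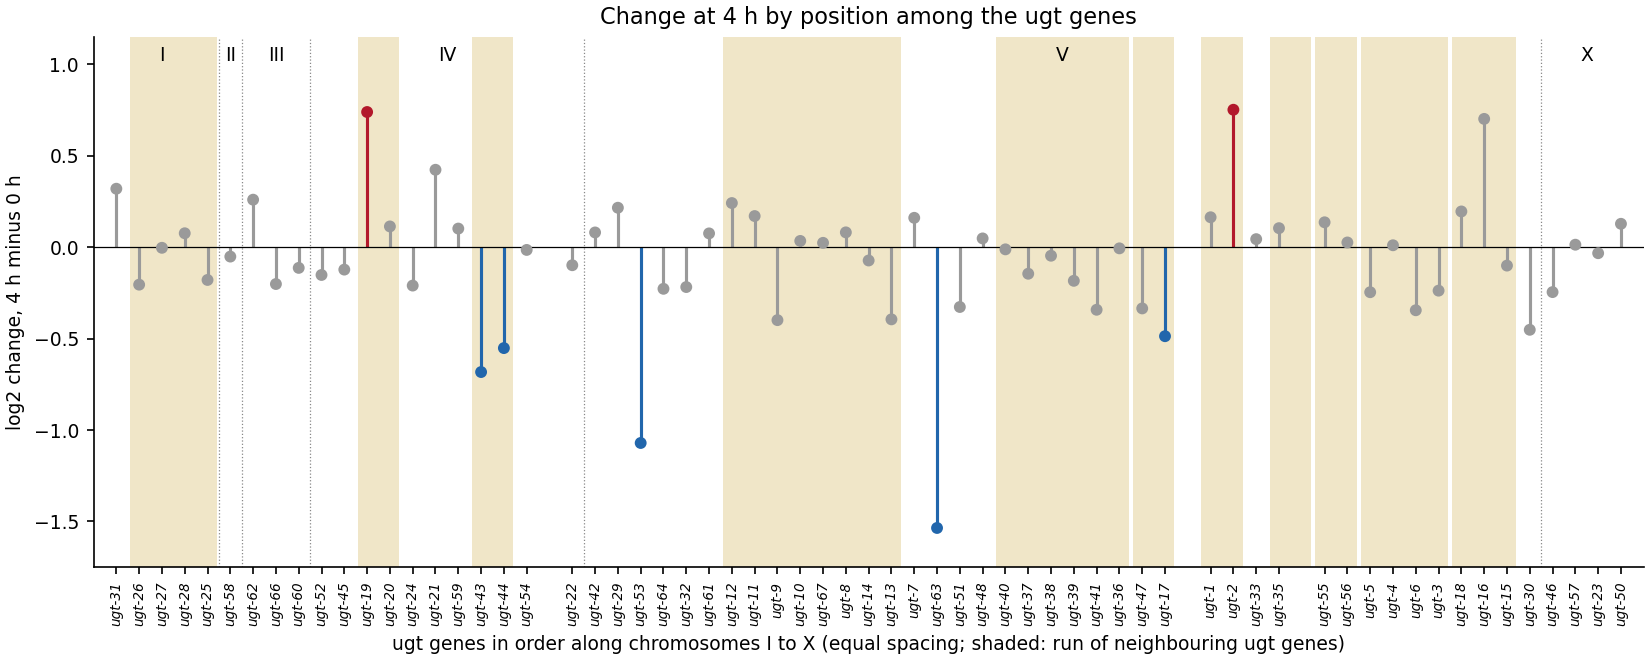
Log2 change from 0 h to 4 h (vertical axis) for the ugt genes in their order along chromosomes I to X (horizontal axis, equally spaced, not to distance), with runs of neighbouring ugt genes shaded and the genes not measured left blank. Blue genes fell and red genes rose. The neighbours ugt-43 and ugt-44 fell together, ugt-63 and ugt-53 stand outside the runs, and the runs of 3 or more members hold grey points only.

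Genes read by more than 1 single-symbol probe set numbered 3, and none of their probe sets was called at 4 h. The probe sets of ugt-46 changed by -0.25 (adjusted p = 0.202) and -0.27 (adjusted p = 0.135), those of ugt-48 by 0.05 and 0.06, and those of ugt-50 by 0.13, 0.10 and 0.19. A probe set assigned to both ugt-22 and Y43D4A.2 changed by -0.08 (adjusted p = 0.83), beside -0.10 for the probe set of ugt-22 alone.

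Genes that make or use UDP-sugars were not called at any time. Of 13 listed, 12 were measured, and at 4 h 0 rose and 0 fell in limma, with a median log2 change of -0.02 and 1 (8.33%) at an unadjusted p under 0.05 against 13% of all genes. The smallest p-values at 4 h were those of gsy-1, the glycogen synthase gene, with a log2 change of -0.20 (adjusted p = 0.335), and sqv-4, the UDP-glucose dehydrogenase gene that supplies UDP-glucuronic acid, with 0.07 (adjusted p = 0.745). At 2 h 11 of the 12 lay below 0, with a median of -0.15, where 53.4% of all genes lay below 0, and 3 (25%) had an unadjusted p under 0.05 against 12.8% of all genes. Of 14 listed regulators of detoxification genes 13 were measured, and 0 rose and 0 fell at 4 h in limma, with a median of 0.06 and 2 (15.4%) at an unadjusted p under 0.05, near the 13% of all genes. Among them, skn-1, the Nrf-family factor of the oxidative and xenobiotic response, had a log2 change of 0.06 (adjusted p = 0.841). The smallest p-values were those of the aryl hydrocarbon receptor gene ahr-1 (-0.21, adjusted p = 0.327) and the nuclear receptor gene nhr-176 (0.28, adjusted p = 0.373).

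Other detoxification families were measured in the same fit at 4 h, where 2.48% of all genes were called, 1.44% as rises and 1.04% as falls. Of 73 cytochrome P450 genes of the form cyp-N, 0 rose and 7 fell (9.59% called), with a median log2 change of -0.05. Of 40 glutathione S-transferase genes of the form gst-N, 1 rose and 0 fell (2.5% called, near the share of all genes), also with a median of -0.05. At an unadjusted p under 0.05 in limma there were 27.4% of the cyp-N genes and 25% of the gst-N genes. This was 39.1% for the ugt genes and 13% for all genes. Changes of at least 0.5 log2 units made up 8.22% of cyp-N and 5% of gst-N, against 10.9% of ugt and 1.94% of all genes. Whether the shares of these families differ from those of the ugt genes, of which 10.9% were called, was not tested.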

How the data were processed

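The authors deposited log2 signals, 1 per probe set and array, after normalization by RMA, as the submitters' processing notes name it. The base was taken from how RMA works and from the range of the signals (1.508 to 14.36). No source used here names the build or software versions behind the deposited signals, so no coordinates are printed. No sequences were used, and the rule on protein identity for named genes could not be applied. All 22548 probe sets were fitted with limma 3.58.1 in R 4.3.3 (a mean per time over 12 arrays, eBayes, 8 residual and 5.03 prior degrees of freedom), with two-sided p-values, Benjamini-Hochberg adjustment over all probe sets and a threshold of 0.05. The fit was tested on simulated data. Symbols came from the platform annotation, and all 64 genes matched a RefSeq gene table of WBcel235, which was used only for names, chromosomes and gene order. Counts over all genes use 17118 representative probe sets.

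The members, lists and alternatives were chosen with earlier results of these data known. Named members were every called gene, the 3 uncalled with the smallest p at 4 h, the 3 highest and 3 lowest signals, and neighbours of called genes. Of the other lists, called genes or those with the smallest p were named. Outside the rule fall skn-1 and ugt-16, and members named as whole sets. These sets were runs of 3 or more, genes whose 0 h and 4 h arrays did not overlap, and genes with more than 1 probe set. Over all probe sets, deviations from the group mean were correlated between arrays of 0 h and 4 h. Pearson's r was 0.169 to 0.314 for equal replicate numbers (4 pairs) and -0.29 to 0.147 for unequal ones. Unequal numbers within replicates 1 and 2, or within 3 and 4, gave 0.0362 to 0.147, and those across these sets -0.29 to -0.122. Deviations within a time sum to 0, which lowers the values of unequal numbers where those of equal numbers are positive. A block on replicate number was therefore run as an alternative, while the main fit, with its p-values and calls, had no block. That equal numbers pair these arrays rests on the values and not on the labels. Alternatives were the replicate block, the groups compared alone, replicates 1 and 2 or 3 and 4 alone, each array left out, a filter on dim probe sets, quantile normalization, a trended robust variance, no probe sets that can cross-hybridise, and the mean of a gene's probe sets.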

Additional observations from a re-analysis of the deposited data

Results flagged for a closer look

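A sample far from the others of its time was found in 2 of 36 groups of 4 arrays examined over the named members, where chance flags about 1.8. For ugt-19 at 4 h, the replicate 1 array lay at 5.70 and the nearest of the other arrays at 6.18. For ugt-47 at 4 h, the replicate 4 array lay at 6.76 and the nearest at 6.47.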

How the results depend on the processing

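No alternative reversed the direction of any of the 7 changes called at 4 h, and ugt-63, ugt-53, ugt-43 and ugt-17 were called in each of the 12 fits that left out 1 array. In the other alternatives at 4 h, only ugt-63 was called in every fit. The limma call was lost for ugt-53 in 1 of 10 (adjusted p = 0.101) and for ugt-43 in 2 of 9 (up to 0.0867). It was lost for ugt-17 in 2 of 9 (up to 0.142), for ugt-44 and ugt-19 in 2 of 10 each, and for ugt-2 in 1 of 9. With single arrays left out, the count of called members at 4 h ran from 4 to 8, at 2 h from 0 to 3 and in the F test from 4 to 6, and it was 0 at 1 h and from 2 h to 4 h. With arrays of replicates 1 and 2 alone it was 1 at 4 h and 1 in the F test, and with replicates 3 and 4 alone it was 4 at 4 h, fits with fewer arrays. With the replicate number as a block the count was 2 at 2 h and 1 from 2 h to 4 h, at 4 h it was 8, adding ugt-31, and in the F test it stayed at 5 with ugt-2 in place of ugt-19. With only the groups compared it was 2 at 2 h, and 0 there with the block as well. At 2 h it was 3 without the dimmer 50% of probe sets, 2 with a trended robust variance and 2 with cross-hybridising probe sets removed, and the cause was not tested. The block ended the call of ugt-19 at 4 h and of ugt-63 at 2 h only in fits of the 2 groups alone. At 1 h the count was 0 under every alternative run. The share of all genes called was not computed under any alternative. Whether the counts of members moved with those of all genes was therefore not tested. Signal over background could not be assessed, 19 members lay under the lower quartile, and 2 arrays at 1 h and at 2 h limit those comparisons. Where 1 of them was left out, the remaining array was assumed to vary like the other times.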
